A study of Mus musculus with 20 samples.

Results

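The insulin, growth hormone and IGF axis was described here through 10 genes named by their role, out of 49315 genes in the liver table. They were the ligand gene Igf1, the acid-labile subunit gene Igfals, the IGF-binding protein genes Igfbp1, Igfbp2, Igfbp3 and Igfbp4, the receptor genes Ghr and Insr, and the insulin receptor substrate genes Irs1 and Irs2. In mice given S217879, transcripts of Igfbp1, Igfbp2, Irs2 and Igf1 were lower than in mice given vehicle, by 2.75-fold, 2.44-fold, 1.79-fold and 1.51-fold. Igfbp3 was 1.41-fold higher. Igfals, Igfbp4, Ghr, Insr and Irs1 did not pass the test on the values as deposited.

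Growth hormone from the pituitary binds its receptor on hepatocytes and, through the kinase JAK2 and the transcription factor STAT5B, drives the liver to make IGF1 and the acid-labile subunit. In blood most IGF1 travels in a complex with IGFBP3 and the acid-labile subunit, while IGFBP1, IGFBP2 and IGFBP4 bind it in smaller complexes. Insulin acts through its receptor, IRS1, IRS2 and the kinase AKT, which keeps the transcription factor FOXO1 out of the nucleus, and the genes for IGFBP1 and IRS2 are among those that FOXO1 turns on.

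The study measured liver RNA of 20 mice of a diet-induced steatohepatitis model (DIO NASH, Gubra), all fed the AMLN diet. Of these, 10 received S217879 (30 mg/kg, PO, QD) for 8 weeks and 10 received vehicle (HEC 1%) for 8 weeks. By the series title the compound disrupts the binding of NRF2, a transcription factor of the antioxidant response, to its inhibitor KEAP1. The labels give no sex, age, strain, feeding state at collection, or blood insulin or growth hormone, and mice without the diet were not analysed here.

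The values were TPM, a share of each library's transcripts corrected for gene length, so the read depth is unknown and precision is the spread between animals. All 10 genes reached the minimum of a mean of 1 TPM, as did 13401 genes in all. Differences are of log2(TPM + 0.5), S217879 minus vehicle, tested with limma over all 13401 genes, and a gene was called at an adjusted p under 0.05. Over all genes 813 were called higher and 3151 lower, against 3561 higher and 3634 lower after median-of-ratios scaling, which raised the median difference of all genes by 0.11, to -0.01 from -0.12. A set of 4 ribosomal RNA-type genes took 14.1% to 38.1% of TPM in the S217879 libraries and 17.4% to 58.2% in the vehicle libraries. Vehicle replicates 6 and 7 stood apart with the highest shares, 58.2% and 50.7%, so most other genes were listed low in both. The summed hepatocyte markers, led by Alb, were at 38984 to 61199 TPM in the S217879 livers and 32429 to 73733 TPM in the vehicle livers.

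Of the 10 genes of the axis, 1 was called higher and 4 were called lower, beside 6.07% of all tested genes called higher and 23.5% called lower. After median-of-ratios scaling the counts were 1 higher and 5 lower, beside 26.6% and 27.1%. With TPM rescaled without the ribosomal RNA-type genes they were 1 and 8, beside 7.54% and 64%, and with vehicle replicates 6 and 7 left out 1 and 7, beside 5.52% and 54.5%. The median difference of the 10 genes was -0.29, beside -0.12 over all genes, and -0.17 beside -0.01 after that scaling. In none of the 10 (0 genes) were the groups free of overlap, beside 3.73% of all tested genes. These are shares of a short list, and nothing particular to it was tested.

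**Figure D1:**
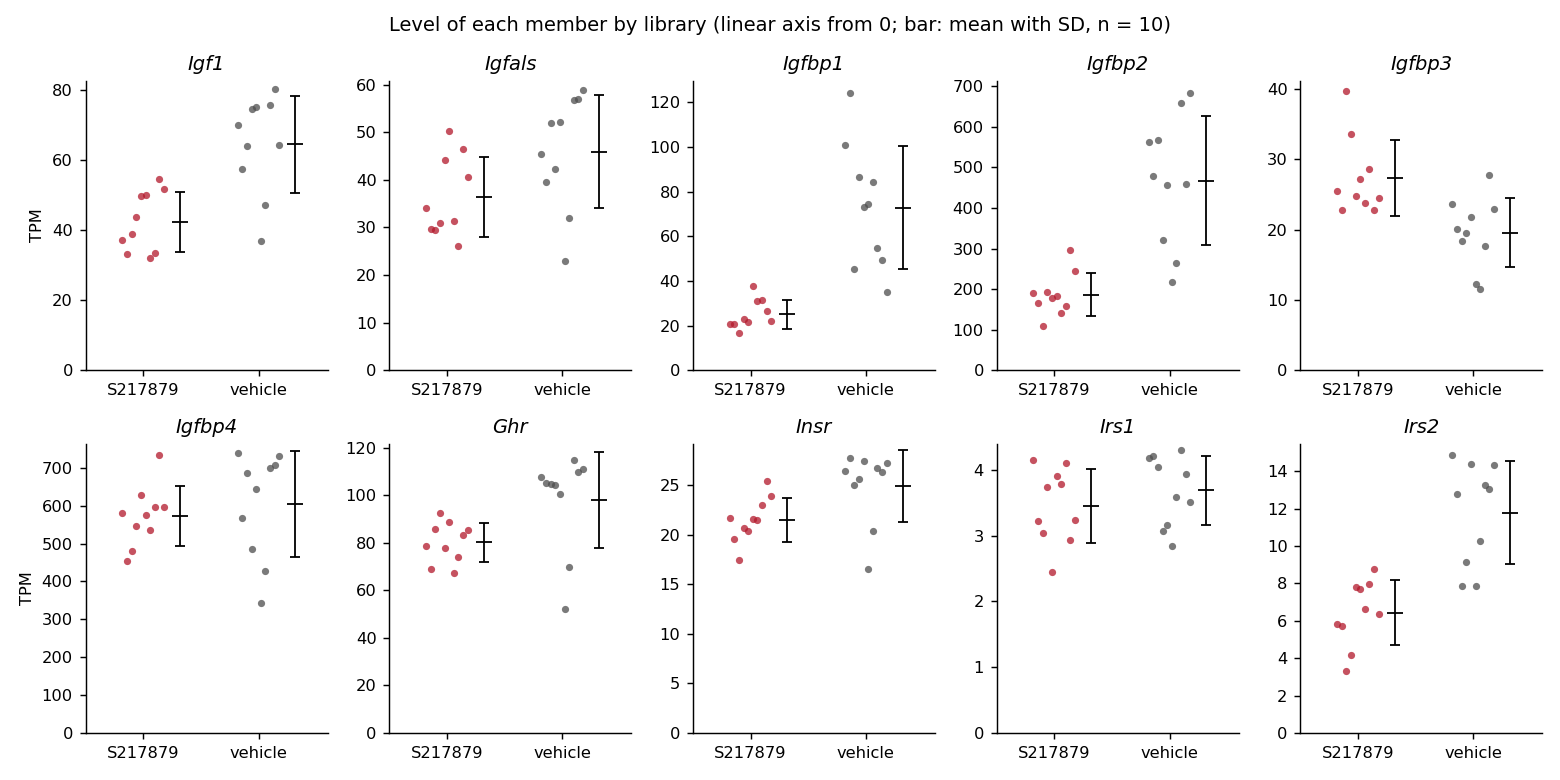
Level in TPM (linear axes from 0) of the 10 genes in each of 10 S217879 livers (red, left) and 10 vehicle livers (grey, right), with bars for the mean and SD. For Igfbp1, 9 of 10 S217879 livers lie below the lowest vehicle liver, whereas the groups of Igfbp4 and Irs1 largely overlap.

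The stretch of DNA just before a gene, its promoter, is where factors such as FOXO1, STAT5 and NRF2 can bind, so the RefSeq start-site windows (build GRCm38.p6, 250 bases before and 50 bases after each annotated start) were searched on both strands. The motifs were CAAAACA (insulin response type), GTAAACA (FOXO type), TTCNNNGAA (STAT5 type) and TGACNNNGC (core of the antioxidant response element). No motif's matches overlapped another's in the windows shown. A window was found for 9 of the 10 genes, 13 windows in all, and none for Insr. Shown are the windows of Igfbp1 and Irs2, which fell and are textbook FOXO1 targets, of Irs1, the paralogue of Irs2 that did not pass the test, and of the second start of Igfbp2, which holds the antioxidant core. Each is written 5′ to 3′ on the gene's strand with the matches in capitals. They lie at chr11:7197537-7197836 on the plus strand (Igfbp1), chr8:11008880-11009179 on the minus strand (Irs2), chr1:82291390-82291689 on the minus strand (Irs1) and chr1:72825137-72825436 on the plus strand (Igfbp2).
Igfbp1: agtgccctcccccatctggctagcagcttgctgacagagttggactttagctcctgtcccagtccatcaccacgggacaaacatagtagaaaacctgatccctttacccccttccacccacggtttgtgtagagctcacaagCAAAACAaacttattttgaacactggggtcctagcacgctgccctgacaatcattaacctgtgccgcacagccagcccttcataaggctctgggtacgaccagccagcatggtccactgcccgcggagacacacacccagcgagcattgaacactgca
Irs2: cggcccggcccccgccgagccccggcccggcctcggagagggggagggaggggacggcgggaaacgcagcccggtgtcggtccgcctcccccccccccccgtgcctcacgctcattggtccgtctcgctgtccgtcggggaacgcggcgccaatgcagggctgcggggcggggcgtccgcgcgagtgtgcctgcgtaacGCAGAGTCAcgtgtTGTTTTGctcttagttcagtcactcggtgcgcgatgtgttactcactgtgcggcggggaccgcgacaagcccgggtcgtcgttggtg
Irs1: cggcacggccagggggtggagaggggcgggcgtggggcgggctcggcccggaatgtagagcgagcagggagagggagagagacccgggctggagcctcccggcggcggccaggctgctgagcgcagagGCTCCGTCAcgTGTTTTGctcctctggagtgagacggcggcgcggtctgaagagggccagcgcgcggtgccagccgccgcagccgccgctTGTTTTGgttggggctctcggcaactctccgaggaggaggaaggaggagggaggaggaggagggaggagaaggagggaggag
Igfbp2, second start: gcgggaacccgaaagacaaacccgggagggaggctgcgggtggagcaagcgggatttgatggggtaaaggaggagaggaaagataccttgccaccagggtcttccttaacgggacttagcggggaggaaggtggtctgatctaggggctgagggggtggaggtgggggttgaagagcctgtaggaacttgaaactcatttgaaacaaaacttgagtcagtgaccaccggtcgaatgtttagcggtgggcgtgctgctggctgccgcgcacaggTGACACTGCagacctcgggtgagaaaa

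Counting the annotated start as 0, CAAAACA began at -108 in Igfbp1, and its reverse complement TGTTTTG at -37 in Irs2 and at -111 and -32 in Irs1. This motif was present in 6.28% of all 32851 windows of the same length. Positions in Irs2 refer to the RefSeq start. The Irs2 window lies wholly outside the GENCODE span given below for that gene, 10984681 to 11008458. The antioxidant core was read as GCAGAGTCA at -51 in Irs2, as GCTCCGTCA at -122 in Irs1 and as TGACACTGC at 23 in Igfbp2, and 12.4% of all windows held it. The STAT5 type was found in windows of Igfals alone among these genes, as TTCTCAGAA at -236 of the first start and TTCCTAGAA at -58 of the second, beside 8.30% of all windows. The second start of Igfals also held the FOXO type as TGTTTAC at -242, beside 3.65% of all windows. None of these letters stood in the windows of Igf1, Igfbp3, Igfbp4 and Ghr. A match is a description of letters, and the genes that held one both passed and missed the test.

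Igf1 (chromosome 10, 87858265 to 87937042, GRCm38), the endocrine growth factor of the liver, fell. Its lowest, median and highest levels were 32.1, 41.3 and 54.6 TPM in the S217879 livers, against 37.0, 67.2 and 80.2 TPM in the vehicle livers. All 10 S217879 livers were below the vehicle median, and 8 of 10 vehicle livers were above every S217879 liver, the exceptions being vehicle replicates 6 and 7. The mean was 42.5 ± 8.60 TPM with S217879 and 64.6 ± 13.9 TPM with vehicle (SD, n = 10 each), a difference of -0.59 (SE 0.13, 95% interval -0.86 to -0.32, limma adjusted p = 7.5e-04). Relative to the median of all genes this was -0.47, and the median-of-ratios difference was -0.48 (limma adjusted p = 1.0e-04). In whole liver, fewer cells that express a gene and less RNA per cell cannot be told apart, here and in every result that follows.

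Igfals (chromosome 17, 24865997 to 24882010), the subunit that completes the large circulating IGF complex, is like Igf1 a classical target of growth hormone. Its lowest, median and highest levels were 26.2, 32.7 and 50.3 TPM with S217879, against 23.0, 48.6 and 59.0 TPM with vehicle. The groups overlapped, with the lowest vehicle liver, replicate 6, below every S217879 liver. The difference of -0.31 (SE 0.15) did not pass (limma adjusted p = 0.112), nor did the scaled difference of -0.20 (adjusted p = 0.146). Without vehicle replicate 6 it was -0.42 (limma adjusted p = 0.0098), beside a median of -0.18 over all genes. Within a library Igfals was higher relative to Igf1 in the S217879 livers, with a mean log2 ratio of -0.23 ± 0.16, against -0.50 ± 0.19 in the vehicle livers (SD, n = 10 each). That difference of 0.28 had an adjusted permutation p of 0.0042, and 10 of 10 S217879 livers were above the vehicle median.

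Igfbp1 (chromosome 11, 7197782 to 7202546) encodes the binding protein that insulin represses within hours in the liver. Its lowest, median and highest levels were 16.5, 22.5 and 37.9 TPM in the S217879 livers, against 35.0, 73.8 and 124 TPM in the vehicle livers. Of the S217879 livers 9 were below every vehicle liver, and the tenth overlapped with the lowest vehicle liver only. The mean fell to 25.1 ± 6.50 TPM with S217879, against 72.8 ± 27.5 TPM with vehicle (SD, n = 10 each). The difference was -1.46 (SE 0.20, 95% interval -1.87 to -1.05, limma adjusted p = 5.8e-06), or -1.34 relative to all genes. The spread between animals was wider with vehicle, with a coefficient of variation of 25.9% in the S217879 livers and 37.8% in the vehicle livers.

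Igfbp2 (chromosome 1, 72824503 to 72852474), made mainly by hepatocytes in adults, was the second most abundant of the 4 binding protein transcripts per length. Its lowest, median and highest levels were 110, 180 and 298 TPM with S217879, against 218, 469 and 685 TPM with vehicle. Vehicle replicates 6 and 7 were the only vehicle livers within the S217879 range. The mean was 186 ± 52.9 TPM with S217879 and 467 ± 159 TPM with vehicle (SD, n = 10 each), a difference of -1.29 (SE 0.20, limma adjusted p = 1.7e-05). After median-of-ratios scaling the groups no longer overlapped, at 126 to 279 with S217879 and 313 to 602 with vehicle on the scaled TPM axis. The share of all tested genes without overlap, 3.73%, was counted on the values as deposited and not under this scaling.

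Igfbp3 (chromosome 11, 7206086 to 7213923) encodes the main carrier of circulating IGF1 and was the single gene of the axis called higher. In rodent liver it is made largely by cells other than hepatocytes. Its lowest, median and highest levels were 22.8, 25.1 and 39.7 TPM with S217879, against 11.6, 19.8 and 27.7 TPM with vehicle. All 10 S217879 livers were above the vehicle median and 3 were above every vehicle liver. The mean was 27.3 ± 5.42 TPM with S217879 and 19.6 ± 4.94 TPM with vehicle (SD, n = 10 each), a difference of 0.49 (SE 0.13, 95% interval 0.23 to 0.76, limma adjusted p = 0.0038) and of 0.61 relative to all genes. Igfbp3 and Igfbp1 are neighbours on chromosome 11, on opposite strands with their 3′ ends facing each other across 3539 bases and 0 annotated genes between them, and they moved in opposite directions.

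Some markers of sinusoidal endothelial cells were higher beside Igfbp3. Of 12 such genes 5 were called higher, 0 were called lower and 7 did not pass, beside 6.07% of all tested genes called higher. Those called were led by the hyaluronan receptor Lyve1 (19.9 ± 3.33 TPM with S217879 and 10.9 ± 2.68 TPM with vehicle, difference 0.86, limma adjusted p = 1.6e-06) and the VEGF receptor Kdr (0.43, adjusted p = 0.0054). Their sum ranged over 196 to 259 TPM in the S217879 livers and 114 to 236 TPM in the vehicle livers. The shared endothelial markers Pecam1 (0.13, limma adjusted p = 0.407) and Cdh5 (0.08, adjusted p = 0.661) did not pass as deposited. Both passed as higher after median-of-ratios scaling (0.24, adjusted p = 0.0011, and 0.19, adjusted p = 0.028), and they were picked after their values were seen. The scavenger receptor genes Stab1 (-0.02) and Stab2 (-0.10) and the ligand gene Wnt2 (-0.07), also picked so, did not pass and lay below 0 as deposited and above 0 after that scaling. After median-of-ratios scaling 9 of the 12 were called higher, beside 26.6% of all genes. With vehicle replicates 6 and 7 left out 3 were called higher and 1 lower, beside 5.52% and 54.5%. The part of endothelial content in the Igfbp3 result was not tested.

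Igfbp4 (chromosome 11, 99041244 to 99054392) encodes a binding protein that inhibits IGF action and was the most abundant of the 4. Its lowest, median and highest levels were 454, 578 and 735 TPM with S217879, against 344, 666 and 740 TPM with vehicle. The groups overlapped over most of their range, and the means were 573 ± 78.4 TPM with S217879 and 604 ± 140 TPM with vehicle (SD, n = 10 each). The difference of -0.04 (95% interval -0.33 to 0.24) did not pass (limma adjusted p = 0.844), and its sign turned to 0.07 after median-of-ratios scaling.

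**Figure D2:**
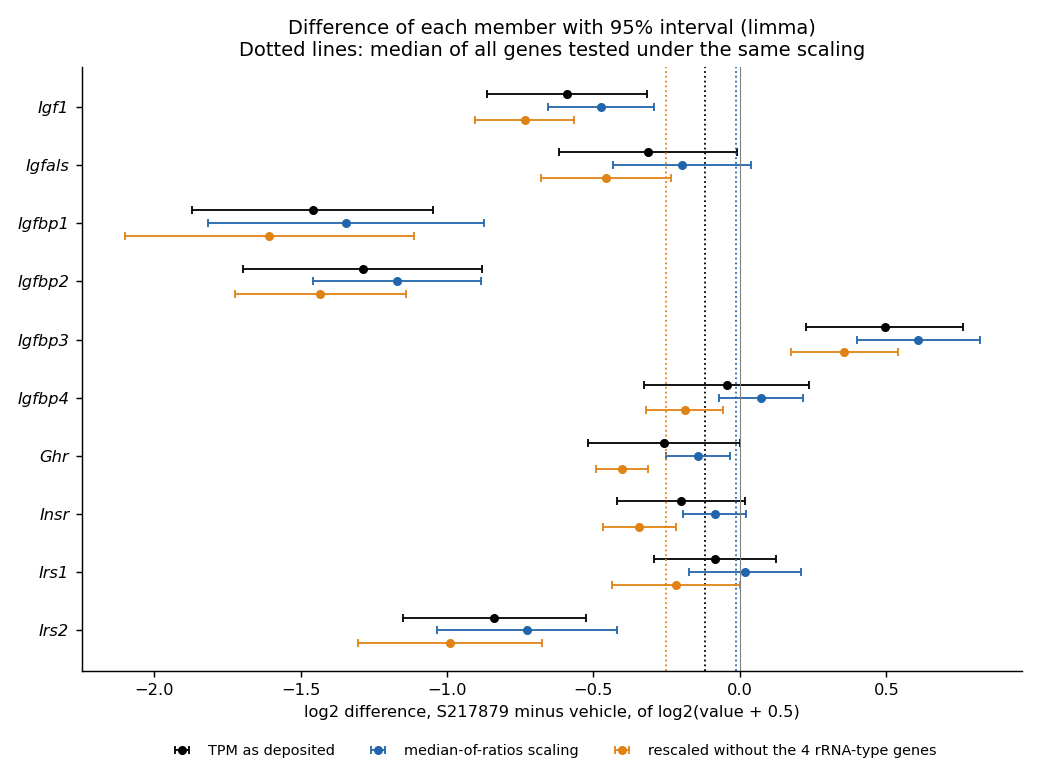
Difference of log2(value + 0.5), S217879 minus vehicle, with its 95% interval for each of the 10 genes under 3 scalings, with dotted lines for the median of all genes. Igfbp1, Igfbp2, Irs2 and Igf1 stay below and Igfbp3 above the line of all genes under each scaling, and Igfbp4 and Irs1 lie on both sides of 0.

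Shares within a library do not depend on how that library was scaled, and they showed a changed make-up of the binding protein transcripts. Igfbp2 was 22.6% ± 3.57 of the summed TPM of the 4 genes in the S217879 livers and 39.3% ± 4.71 in the vehicle livers (SD, n = 10 each). The highest S217879 liver was at 27.6% and the lowest vehicle liver at 33.6%, so the groups did not overlap. Igfbp4 was 70.8% ± 2.71 with S217879 and 52.1% ± 2.76 with vehicle, also without overlap. Igfbp1 was 3.13% ± 0.81 with S217879 and 6.89% ± 3.42 with vehicle, and Igfbp3 3.47% ± 1.08 with S217879 and 1.71% ± 0.32 with vehicle. The 4 shares add up to 100%, so they are one description and not 4 separate results. The sum itself was 812 ± 123 TPM with S217879 and 1163 ± 286 TPM with vehicle.

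**Figure D3:**
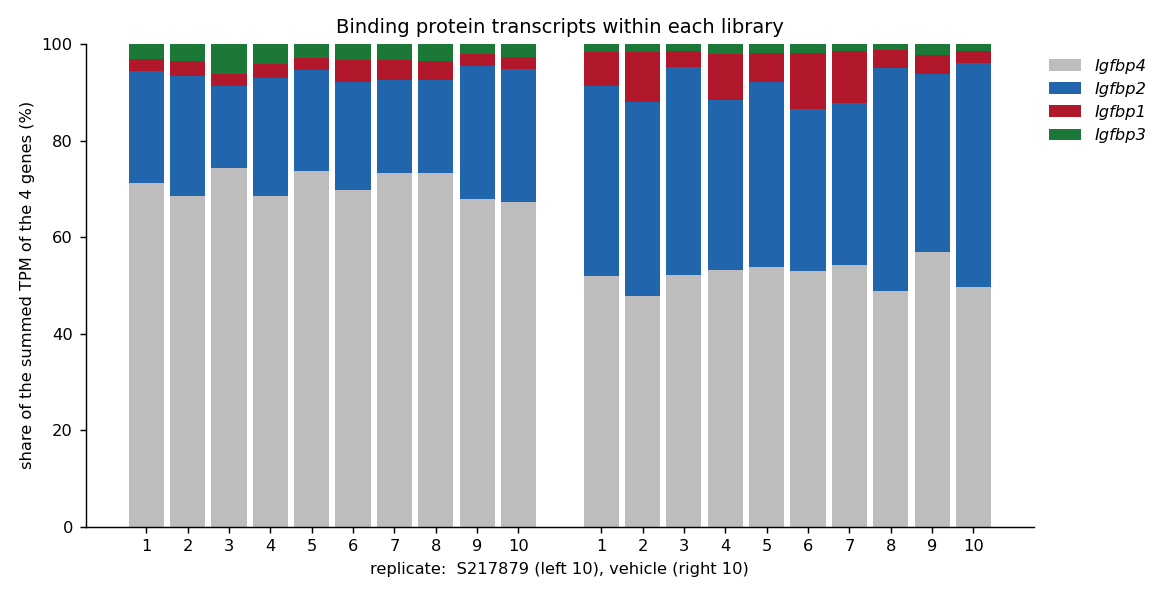
Share in percent of the summed TPM of the 4 binding protein genes, 1 bar per library, for 10 S217879 livers (left) and 10 vehicle livers (right). Igfbp2 (blue) is at most 27.6% in the S217879 livers and at least 33.6% in the vehicle livers.

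The same was measured against the ligand. The log2 ratio of Igfbp1 to Igf1 averaged -0.76 ± 0.45 with S217879 and 0.11 ± 0.73 with vehicle (SD, n = 10 each), a difference of -0.87 (permutation p = 0.0057, adjusted over the 6 ratios 0.0057). Igfbp2 to Igf1 differed by -0.70 (permutation p = 3.3e-04, adjusted 9.9e-04). Both binding protein transcripts were thus lower relative to Igf1, although Igf1 itself had fallen. Igfbp3 to Igf1 went the other way, at -0.62 ± 0.41 with S217879 and -1.71 ± 0.22 with vehicle, a difference of 1.09. These groups did not overlap, and the permutation p of 1e-05 (adjusted 6e-05) was the smallest that the resamples could give.

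**Figure D4:**
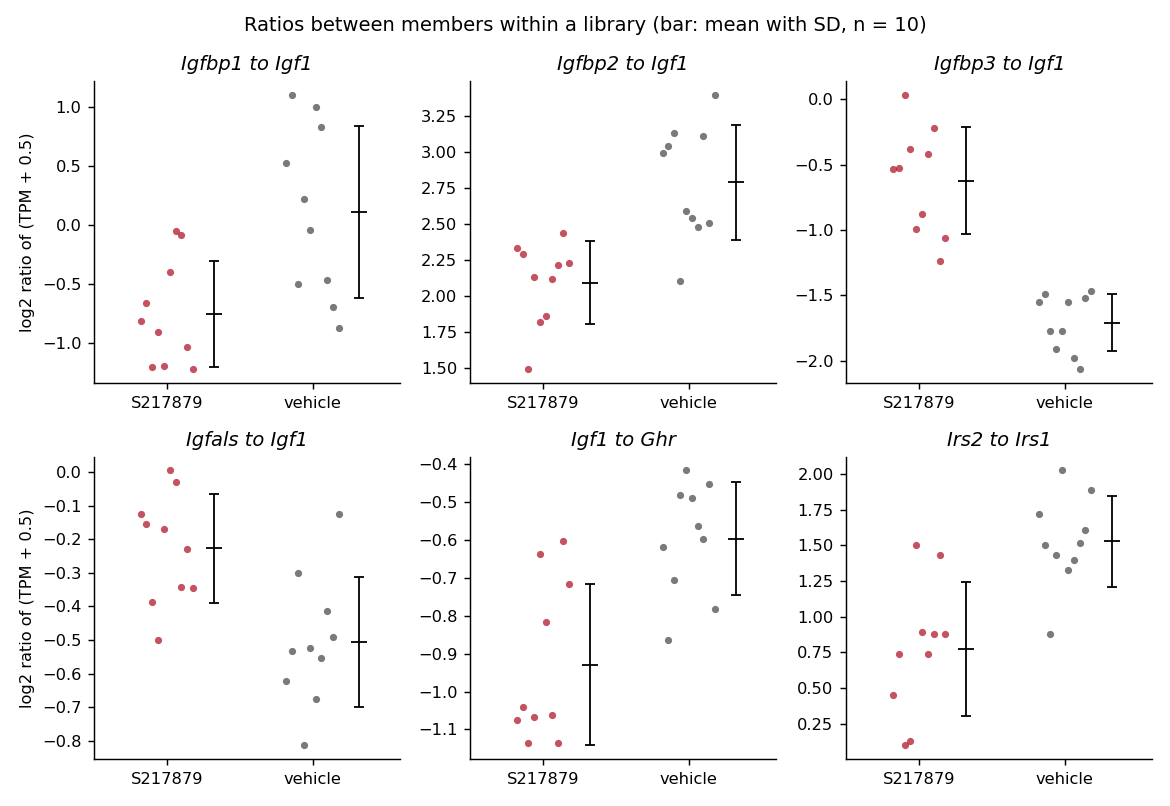
Log2 ratio of (TPM + 0.5) between pairs of genes in each library, S217879 (red, left) and vehicle (grey, right), with bars for the mean and SD; axes do not start at 0. The ratio of Igfbp3 to Igf1 lies between -1.24 and 0.03 in the S217879 livers and between -2.07 and -1.47 in the vehicle livers.

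Ghr (chromosome 15, 3317760 to 3583492), the growth hormone receptor, had lowest, median and highest levels of 67.5, 80.9 and 92.3 TPM with S217879, against 52.1, 105 and 115 TPM with vehicle. Every S217879 liver was below the vehicle median and 8 vehicle livers were above every S217879 liver, but vehicle replicate 6 had the lowest value of all and vehicle replicate 7 lay within the S217879 range. The difference of -0.26 (SE 0.13, 95% interval -0.52 to 0.00) did not pass (limma adjusted p = 0.125). It was -0.14 and passed after median-of-ratios scaling (adjusted p = 0.026), and -0.42 (adjusted p = 1.7e-05) with both replicates left out. The median over all genes was -0.01 after that scaling and -0.23 with both replicates left out. Relative to its receptor Igf1 was lower with S217879, with a log2 ratio of Igf1 to Ghr of -0.93 ± 0.21, against -0.60 ± 0.15 with vehicle (SD, n = 10 each; adjusted permutation p = 0.0021).

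Insr (chromosome 8, 3122061 to 3279617), the insulin receptor, was at 17.4, 21.6 and 25.4 TPM (lowest, median, highest) with S217879, against 16.5, 26.4 and 27.7 TPM with vehicle. All 10 S217879 livers were below the vehicle median, and 7 vehicle livers were above every S217879 liver. The difference of -0.20 (SE 0.11) did not pass (limma adjusted p = 0.159), and neither did the scaled difference of -0.09 (adjusted p = 0.159). Without vehicle replicate 6 it was -0.26 (limma adjusted p = 0.0083), beside a median of -0.18 over all genes.

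The substrates that carry the signal from the insulin receptor to PI3-kinase parted. Irs2 (chromosome 8, 10984681 to 11008458) was at 3.30, 6.50 and 8.77 TPM (lowest, median, highest) with S217879, against 7.85, 12.9 and 14.9 TPM with vehicle. Of the S217879 livers 8 were below every vehicle liver. Its mean fell to 6.43 ± 1.74 TPM with S217879, against 11.8 ± 2.75 TPM with vehicle (SD, n = 10 each), a difference of -0.84 (SE 0.15, 95% interval -1.15 to -0.53, limma adjusted p = 9.8e-05) or -0.72 relative to all genes. Irs1 (chromosome 1, 82233101 to 82291416) was at 2.44, 3.49 and 4.15 TPM with S217879, against 2.85, 3.76 and 4.30 TPM with vehicle. Its groups overlapped, and the difference of -0.09 (95% interval -0.29 to 0.12) did not pass (limma adjusted p = 0.570). The log2 ratio of Irs2 to Irs1 was 0.77 ± 0.47 with S217879 and 1.53 ± 0.32 with vehicle. That difference of -0.75 had an adjusted permutation p of 0.0021. All 10 S217879 livers were below the vehicle median of this ratio, but the groups overlapped. Exons of both genes overlap a gene on the other strand, Gm9747 for Irs1 and 9530052E02Rik for Irs2, and no source used here says whether counting used strand.

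The insulin and growth hormone genes themselves were near or at 0 in these livers. Ins2, Ppy and Iapp were listed at 0 in every library, and Ins1 and Gh stayed below 0.1 TPM. The ghrelin gene Ghrl, below the minimum, averaged 0.57 ± 0.16 TPM with S217879 and 0.86 ± 0.26 TPM with vehicle. Of 16 pancreatic and gut hormone and receptor genes 2 reached the minimum. The glucagon receptor Gcgr was at 184 ± 21.9 TPM with S217879 and 181 ± 38.5 TPM with vehicle (limma adjusted p = 0.803), and it passed as higher after median-of-ratios scaling (0.17, adjusted p = 0.0039). Ghrl and Gcgr were picked after their values were seen. The somatostatin receptor Sstr2 fell to 0.54 ± 0.14 TPM with S217879, against 1.57 ± 0.28 TPM with vehicle (difference -0.99, limma adjusted p = 8.6e-10), without overlap.

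In a list of growth hormone receptor signalling that holds Ghr itself, the related receptors Prlr and Lepr, and genes that act with or below them, 6 of 21 tested genes were called lower and 0 higher. That is 28.6% lower, beside 23.5% of all tested genes called lower and 6.07% called higher. The median was -0.29 beside -0.12 for all genes. Among those called were Jak2, the kinase bound to the receptor (8.50 ± 1.16 TPM with S217879 and 10.8 ± 1.81 TPM with vehicle, difference -0.32, limma adjusted p = 0.021), and Stat5a (-0.43, adjusted p = 7.9e-04). The lowest were the leptin receptor Lepr (-1.05, limma adjusted p = 3.7e-05) and the adaptor Sh2b2 (-0.47, adjusted p = 5.0e-04). Stat5b, the form that acts most on liver Igf1, differed by -0.26 without passing (limma adjusted p = 0.073), and by -0.14 after median-of-ratios scaling, where it passed (adjusted p = 0.029). The feedback inhibitors Socs2 (-0.72, adjusted p = 0.076) and Cish (-0.59, adjusted p = 0.316), which growth hormone induces, varied widely between animals and did not pass either. Of the names given in this paragraph, Jak2, Stat5a, Stat5b, Socs2 and Cish were picked after their values were seen. The count lower was 9 after median-of-ratios scaling, beside 27.1% of all genes. It was 15 when rescaled without the ribosomal RNA-type genes, beside 64%, and 14 with vehicle replicates 6 and 7 left out, beside 54.5%.

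In a list of 13 growth hormone and STAT5 target genes, Igf1, Igfals and Ghr included, 6 were called lower and 1 higher, with a median of -0.59. Most of them rise with growth hormone, but Bcl6 in the list is known to be repressed by it, and it did not pass (0.08, limma adjusted p = 0.871; picked after its values were seen). In this list the share lower was 46.2%, beside 23.5% of all tested genes, and the share higher 7.69%, beside 6.07%. The count lower was 7 after median-of-ratios scaling, beside 27.1% of all genes. It was 10 with TPM rescaled without the ribosomal RNA-type genes, beside 64%, and 9 with vehicle replicates 6 and 7 left out, beside 54.5%. The growth factor receptor Egfr fell to 20.5 ± 16.7 TPM with S217879, against 41.9 ± 19.8 TPM with vehicle (difference -1.18, limma adjusted p = 0.016). The exception was Gstp1, a glutathione transferase and also a textbook NRF2 target, at 3778 ± 625 TPM with S217879 and 1035 ± 282 TPM with vehicle (difference 1.90, limma adjusted p = 6.6e-13). Gstp1 belongs to a family of near-identical copies, whose reads may be split in counting.

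Genes whose liver level differs between male and female mice through the pulse pattern of growth hormone moved in both directions. Of 21 tested male-biased genes 10 were called lower and 3 higher, or 47.6% and 14.3%, beside 23.5% and 6.07% of all tested genes. After median-of-ratios scaling 10 were lower and 5 higher, beside 27.1% and 26.6% of all genes. The counts were 12 and 4 when rescaled without the ribosomal RNA-type genes, beside 64% and 7.54%. With vehicle replicates 6 and 7 left out they were 12 and 3, beside 54.5% and 5.52%. The serpin Serpina1e (-2.18, limma adjusted p = 8.7e-04) and the trefoil factor Tff3 (-2.02, adjusted p = 2.9e-05) were lowest, whereas the glucuronosyltransferase Ugt2b1 (1.73, adjusted p = 1.2e-09) and the cytochrome P450 gene Cyp2d9 (1.11, adjusted p = 4.3e-05) were highest. Of 14 tested female-biased genes 5 were called higher and 5 lower, or 35.7% each, beside 6.07% and 23.5% of all tested genes. Both counts stayed at 5 under each of those alternatives, beside the shares of all genes just given for them. Cyp2a4 was at 905 ± 281 TPM with S217879 and 15.3 ± 7.29 TPM with vehicle (difference 5.90, limma adjusted p = 2.4e-13), and Cyp2b9 differed by 1.57 (adjusted p = 0.012), while Cyp17a1 differed by -2.49 (adjusted p = 3.8e-06) and Acot3 by -1.16 (adjusted p = 0.010). Called genes of each list thus lay in both directions. Several genes of these lists, among them Serpina1e, Ugt2b1, Cyp2d9, Cyp2a4 and Cyp2b9, belong to families of near-identical copies. Their values are uncertain where counting split reads between copies. Several genes of the lists are also known to respond to xenobiotics.

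Insulin represses one set of liver genes and induces another, and called genes in both sets were mostly lower with S217879. Of 16 genes that insulin represses through FOXO1, among them Igfbp1, Irs2 and Insr, 8 were called lower and 0 higher, with a median of -0.29. That is 50% lower, beside 23.5% of all tested genes. After median-of-ratios scaling 8 were lower and 1 higher, beside 27.1% and 26.6%. When rescaled without the ribosomal RNA-type genes 13 were lower, beside 64%, and with vehicle replicates 6 and 7 left out 12, beside 54.5%. Pdk4, which restrains glucose oxidation, fell to 3.89 ± 1.22 TPM with S217879, against 11.8 ± 4.03 TPM with vehicle (difference -1.47, limma adjusted p = 2.3e-06), without overlap. The gluconeogenic genes Pck1 (-0.19, limma adjusted p = 0.364) and G6pc (0.36, adjusted p = 0.288) did not pass, and G6pc passed as higher after median-of-ratios scaling (0.48, adjusted p = 0.038). Both were picked after their values were seen. Of 16 genes that insulin induces, mostly of fatty acid synthesis, 11 were called lower and 1 higher, with a median of -0.77. That is 68.8% and 6.25%, beside 23.5% and 6.07% of all tested genes. The counts were 11 and 2 after median-of-ratios scaling, beside 27.1% and 26.6% of all genes. They were 13 and 1 when rescaled without the ribosomal RNA-type genes, beside 64% and 7.54%. With vehicle replicates 6 and 7 left out they were also 13 and 1, beside 54.5% and 5.52%. Fatty acid synthase Fasn fell to 128 ± 54.7 TPM with S217879, against 301 ± 105 TPM with vehicle (difference -1.27, limma adjusted p = 0.0013), and the lipase family gene Pnpla3 differed by -1.49 (adjusted p = 2.3e-04). Malic enzyme Me1, also a known NRF2 target, was the exception, at 190 ± 50.7 TPM with S217879 and 120 ± 35.2 TPM with vehicle (difference 0.67, limma adjusted p = 8.5e-04).

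Between receptor and target, 5 of 35 tested genes of insulin signalling were called lower and 1 higher, with a median of -0.13 beside -0.12 for all genes. That is 14.3% and 2.86%, beside 23.5% and 6.07% of all tested genes. The PI3-kinase subunits Pik3r1 (14.8 ± 2.09 TPM with S217879 and 21.7 ± 3.81 TPM with vehicle, difference -0.53, limma adjusted p = 4.4e-04) and Pik3cd (-0.50, adjusted p = 4.0e-04) were lowest, and the kinase gene Rps6kb1 was higher (0.34, adjusted p = 0.019). Akt1 (-0.23, limma adjusted p = 0.135; -0.11 and 0.020 after median-of-ratios scaling, where it passed), Akt2 (-0.12, adjusted p = 0.475) and Foxo1 (-0.13, adjusted p = 0.391) did not pass as deposited and were picked after their values were seen. The count lower was 8 after median-of-ratios scaling, with 6 higher, beside 27.1% and 26.6% of all genes. It was 29 when rescaled without the ribosomal RNA-type genes, beside 64% of all genes, and 25 with vehicle replicates 6 and 7 left out, beside 54.5%. Of 21 tested brakes on insulin signalling 7 were called lower and 1 higher, or 33.3% and 4.76%, beside 23.5% and 6.07% of all tested genes. The count lower was 9 after median-of-ratios scaling, and 18 both when rescaled without the ribosomal RNA-type genes and with vehicle replicates 6 and 7 left out. Beside these stand the same 27.1%, 64% and 54.5% of all genes. The kinase genes Sik1 (-0.73, limma adjusted p = 6.5e-05) and Prkcd (-0.59, adjusted p = 2.8e-05) were lowest, and the pseudokinase gene Trib3 was higher (0.80, adjusted p = 0.0022). Trib3 ranged over 12.1 to 30.4 TPM with S217879 and 6.07 to 15.3 TPM with vehicle.

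Of 17 other IGF genes 7 reached the minimum, and 4 of these were called lower and 0 higher. That is 57.1% lower, beside 23.5% of all tested genes. After median-of-ratios scaling 5 were lower and 1 higher, beside 27.1% and 26.6% of all genes. The count lower was also 5 when rescaled without the ribosomal RNA-type genes, beside 64%. With vehicle replicates 6 and 7 left out it was again 5, beside 54.5%. Igf2bp2, which encodes an mRNA-binding protein, differed by -0.71 (limma adjusted p = 1.5e-06), and Htra1, a secreted protease that cleaves IGF-binding proteins, by -0.59 (adjusted p = 4.6e-04). Igf2, the fetal ligand, averaged 0.13 ± 0.03 TPM with S217879 and 0.20 ± 0.07 TPM with vehicle, and the receptor gene Igf1r 0.83 ± 0.13 TPM with S217879 and 1.01 ± 0.18 TPM with vehicle. Both were below the minimum and not tested. They were picked after their values were seen.

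**Figure D5:**
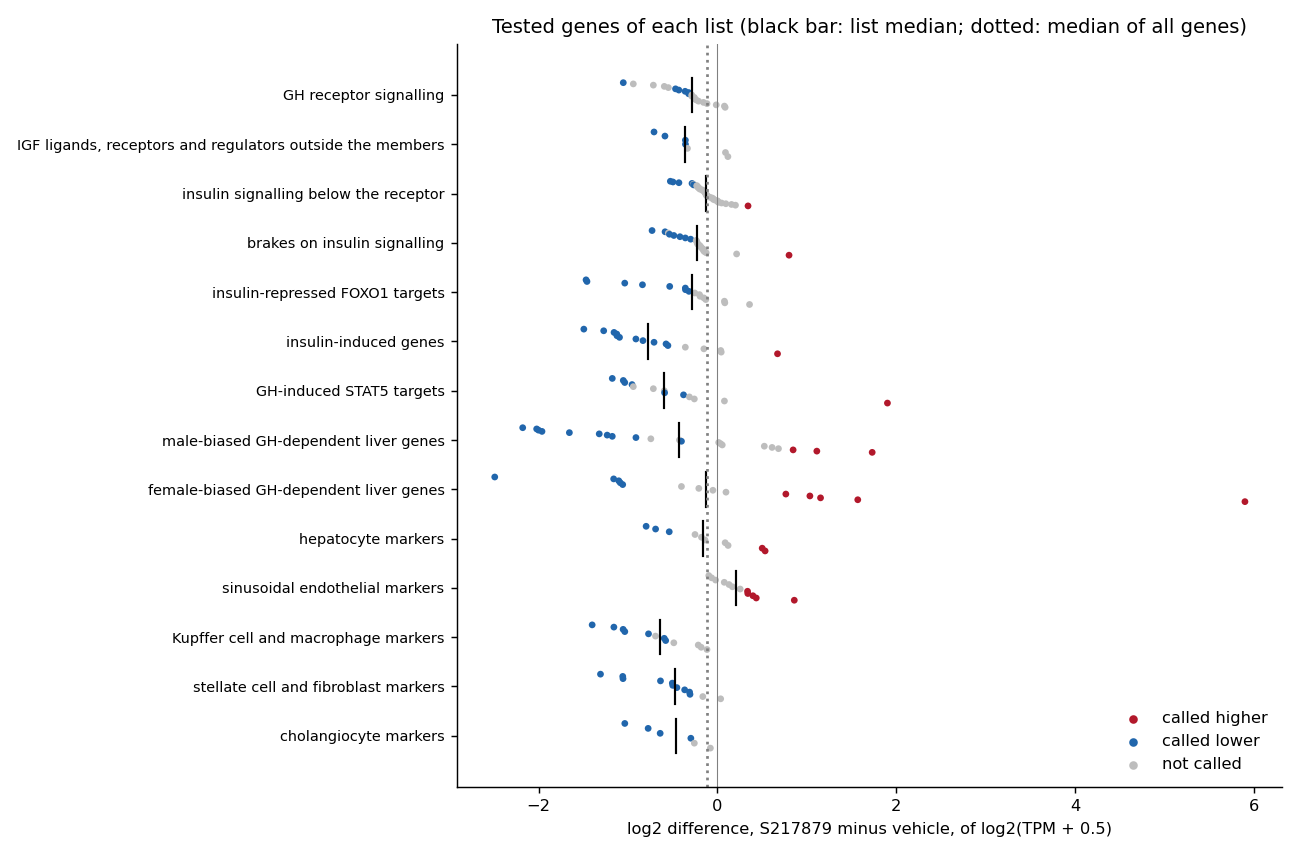
Difference of log2(TPM + 0.5), S217879 minus vehicle, of each tested gene in 14 lists (pale points not called, blue called lower, red called higher), with a black bar for the list median and a dotted line for all genes. The insulin-induced list has its median at -0.77, and the sinusoidal endothelial list is the one with a median above 0.

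Markers of other liver cell types differed between the groups beside these results. Their counts stand beside 23.5% of all tested genes called lower and 6.07% called higher. Of 12 Kupffer cell and macrophage markers 7 were called lower and 0 higher, led by Gpnmb (-1.40, limma adjusted p = 8.2e-09) and Cd9 (-1.16, adjusted p = 1.1e-09), and their sum was 467 to 864 TPM with S217879 and 669 to 1140 TPM with vehicle. Of 12 stellate cell and fibroblast markers 10 were called lower and 0 higher, led by the collagen gene Col1a1 (-1.31, limma adjusted p = 9.8e-09) and Lum (-1.06, adjusted p = 3.2e-04), at sums of 380 to 618 TPM with S217879 and 417 to 747 TPM with vehicle. Of 6 tested cholangiocyte markers 4 were called lower, led by Spp1 (-1.04, limma adjusted p = 5.7e-05), which is also a macrophage marker here, and Muc1 (-0.78, adjusted p = 6.2e-04), at sums of 99.8 to 258 TPM with S217879 and 189 to 486 TPM with vehicle. No marker of these lists was at 0 in all libraries. The shares called lower were 58.3% of macrophage, 83.3% of stellate cell and 66.7% of cholangiocyte markers. After median-of-ratios scaling the counts lower in that order were 7, 9 and 3, beside 27.1% of all genes. They were 8, 11 and 5 when rescaled without the ribosomal RNA-type genes, beside 64%. With vehicle replicates 6 and 7 left out they were 8, 11 and 4, beside 54.5%. Of 10 hepatocyte markers 3 were called lower, led by Trf (-0.80) and Apoa1 (-0.69), and 2 higher, Ttr (0.50) and Serpina1c (0.53). The hepatocyte counts were 3 lower and 4 higher after median-of-ratios scaling, beside 27.1% and 26.6% of all genes. They were 6 and 2 when rescaled without the ribosomal RNA-type genes, beside 64% and 7.54%. With vehicle replicates 6 and 7 left out they were 6 and 1, beside 54.5% and 5.52%. The part of any of these cell types in the results on the axis was not tested.

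Whether the genes vary together between animals of one group was asked for 6 pairs in each group, 12 relations in all, after median-of-ratios scaling. Igf1 and Igfals varied together among the 10 S217879 livers (Pearson r = 0.86, permutation p = 0.0016, adjusted p = 0.019; Spearman rho = 0.72, permutation p = 0.023, adjusted p = 0.158). Without the 2 livers farthest from the median of Igf1 r was 0.84, and its adjusted permutation p of 0.124 no longer passed. In the vehicle livers the same pair had r = 0.50 (adjusted permutation p = 0.335), and whether the groups differ was not tested. Igfbp1 and Irs2, which insulin represses together, had r = 0.69 in the S217879 livers and 0.22 in the vehicle livers, with adjusted permutation p of 0.125 and 0.745. The other relations did not pass either, Ghr with Igf1 at r = 0.48 in the S217879 livers and 0.47 in the vehicle livers among them (both adjusted permutation p = 0.335).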

How the data were processed

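Liver RNA of 20 mice was sequenced, 10 per group, and the treatment label set each animal's group. Per the labels' protocols, total RNA went into a stranded kit with polyA capture. The processing steps used STAR 2.5.2b, Trimmomatic 0.36, Subread 1.5.2 and featureCounts on GRCm38, per the submitters' processing notes. Settings, annotation and strand use were not given in the sources used here. Values are TPM as computed and deposited by the authors, summing to 1000000 in each library. TPM keeps no depth, so no counting interval is given. Column names matched the animal numbers of the labels, with 0 columns left over and 0 identical pairs of libraries. Each animal was taken as 1 replicate. Of 49315 identifiers, 48970 were found in GENCODE M21, which gave symbols and coordinates, and promoter windows came from RefSeq (GRCm38.p6).

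Genes averaging at least 1 TPM over all libraries were tested on log2(TPM + 0.5), which understates changes of low genes, with limma 3.58.1 in R 4.3.3 (eBayes with trend and robust, Benjamini-Hochberg). Ratios and relations had two-sided permutation tests of 100000 resamples in numpy 2.4.6, with ranks from scipy 1.17.1. The limma step was tested on simulated data. Alternatives changed the pseudocount, the minimum, the scaling, the weights, the test and the libraries kept. Median-of-ratios scaling divided each library by the median ratio of its genes to their geometric means, over 13226 genes above 0 in all libraries.

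The genes of the axis, the 15 gene lists and the doubted libraries were chosen with earlier results of these data known, so lists are given by counts and medians, without a test. All 10 genes of the axis are named, and from each list the 2 called genes with the highest and the 2 with the lowest difference, in the direction called; other names are said to be picked after their values were seen. Genes most like a member were ranked by Pearson's r over 20 libraries with group means removed.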

Additional observations from a re-analysis of the deposited data

How the results depend on the processing

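Igf1, Igfbp1, Igfbp2, Igfbp3 and Irs2 kept their direction and passed in each of 33 alternatives, with log2 differences from -0.74 to -0.48, -1.61 to -1.16, -1.51 to -1.17, 0.28 to 0.61 and -0.99 to -0.69. The other calls depend on scaling and on vehicle replicates 6 and 7. Ghr was called lower in 9 of 33 alternatives, Igfals and Insr in 6 each, Igfbp4 in 3 and Irs1 in 0 of 32. The count of genes of the axis called lower, 4 as deposited, was 8 with quantile normalization, 8 with TPM rescaled without the ribosomal RNA-type genes, 8 with array weights, 7 with vehicle replicates 6 and 7 left out together, and 4 to 7 when each library was left out in turn, the highest without vehicle replicate 6. Over all genes the count higher, 813 as deposited, was 3561 with median-of-ratios scaling, 3536 with quantile normalization and 3231 with that scaling and vehicle replicates 6 and 7 left out, an alternative added after seeing the data. The count lower, 3151 as deposited, was 1642 with a minimum of 5 TPM, where fewer genes were tested, 8576 when rescaled, 8023 with array weights, 7303 without vehicle replicates 6 and 7, and 2656 to 5195 leaving out 1 library, the highest without vehicle replicate 6. The 6 ratios kept their direction and passed in each alternative run. As deposited, Ghr with Igf1 (r = 0.91) and Igf1 with Igfals (r = 0.90) also passed in the vehicle livers, where most genes of replicates 6 and 7 are listed low, and without the 2 farthest livers r was 0.17 (adjusted permutation p = 0.789) and 0.42 (adjusted permutation p = 0.588). After median-of-ratios scaling, Igf1 with Igfals in the S217879 livers no longer passed without 2 livers (r = 0.84). The cause of each change was not tested. TPM keeps no depth, so low genes such as Irs1 carry a counting error that is unknown here. No paired analysis was possible because the labels number every animal separately and share no number between the groups.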

Other observations

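Across all 20 libraries, after median-of-ratios scaling and with group means removed, the gene whose level was most like that of Igfbp3 was Colec11 (Pearson r = 0.88), followed by Colec10 (0.86) and Selenof (0.86). For Igf1 these were Arhgef26 (0.84), Mtss1 (0.81) and Lin7a (0.77), for Igfbp1 Cpeb2 (0.83), for Igfbp2 Por (0.84), for Irs2 R3hdm2 (0.85), for Insr Hipk1 (0.94) and for Ghr Tomm70a (0.94). Colec11 is among the stellate cell and fibroblast markers counted above. It was at 68.9 ± 10.7 TPM with S217879 and 78.6 ± 18.1 TPM with vehicle (SD, n = 10 each) and did not pass the limma test (adjusted p = 0.367), whereas Igfbp3 rose. Within the axis the highest values were for Igf1 with Igfals (0.75) and Insr with Irs2 (0.68), and the lowest was for Irs1 with Igf1 (-0.60). The libraries share one scaling step and these genes were picked as the highest of 13401, so the values are a description with no test.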
